A study of Mus musculus with 2 samples.

Results

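Krt8, Krt18 and Krt19 encode keratins 8, 18 and 19, the intermediate filament proteins of simple epithelia. These 3 genes were taken by their mouse symbols out of 32285 mouse genes counted in the 2 libraries, and 50 further keratin genes are in the same gene table. The keratins were chosen by their measured levels: earlier results of these data had shown a large difference in Krt8 between the tumour cells of the libraries, so the levels are given as a description and carry no test. Krt8 was the only keratin with 100 or more UMIs in tumour cells: it had 2534 UMIs (unique molecular identifiers, each standing for 1 captured transcript) under the wild type label and 87 in the library labelled knockout. Krt18 had 9 and 5 UMIs in these cells, and Krt19 had none in either library.

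Keratins form filaments only as pairs of a type II and a type I protein. Keratin 8 is type II, and its usual partners are the type I proteins keratin 18 and keratin 19. Simple epithelia such as liver, gut and pancreatic ducts carry them, and in the brain they are known chiefly from the choroid plexus. The keratin filament protects cells against mechanical stress and is anchored at desmosomes by plakins and desmoplakin. In injured lung of the mouse, Krt8 marks a transitional state of alveolar epithelium.

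Both libraries came from mouse brains holding tumours of GL261, a glioma line that is grafted into C57BL/6 hosts, and were collected at day 24 after implantation. The hosts of one library are labelled C57BL/6 wild type and those of the other carry the label Cav3.2KO, a knockout of Cacna1h, the T-type calcium channel gene. Both groups received the same line, and the knockout is in the host by the design text. The study asks what T-type channels in the surroundings of a glioblastoma do. Each group had 1 library, from a number of animals that the sources used here do not give, so no difference below has a replicate check and no test of the genotype was made. All intervals are exact 95% counting intervals and cover counting error only.

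The libraries held 7382 and 8369 barcodes with 54567114 and 103281480 UMIs, in the order wild type label, knockout label, which is kept throughout. A barcode counted as a cell when it had 500 or more mouse genes and no more than 10% of its UMIs from mitochondrial genes. This left 3110 and 6575 cells, with 7 barcodes in common, none of them a tumour cell. Cacna1h was higher under the knockout label, at 0.25 CPM (counts per 1000000 mouse UMIs of the cells in question) against 1.67 CPM in the kept cells, so the groups are named by their labels only. Among host cells under the knockout label, 3734 had Xist and no UMI of 4 Y-linked genes and 866 the reverse, while under the wild type label these were 0 and 2006, so host cells of both sexes were present in the former library. Tumour cells were those with at least 4 UMIs summed over Sox2, Nes, Hmga2 and Met and at most 1 UMI of the leukocyte gene Ptprc. They numbered 659 (21.2% of kept cells) and 1032 (15.7%), with 22706123 and 31223234 mouse UMIs and medians of 31396 and 26334 UMIs per cell. Of the 10 markers listed for GL261, the 6 that the gate did not use summed to 1460 and 1580 CPM in them, against 148 and 124 CPM in host cells. Host cells are the kept cells outside both the gate and the tumour clusters described below, so that 96 and 251 cells of those clusters outside the gate are in neither group. With 1 library each, the genotype of the hosts, their make-up by sex and the library cannot be told apart.

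Krt8 (ENSMUSG00000049382) lies on chromosome 15 from 101996698 to 102004482 on the minus strand, and Krt18 (ENSMUSG00000023043) from 102028180 to 102032027 on the plus strand, in GENCODE M21 on mm10. They stand head to head, with 23.7 kb between their starts, Krt18 being the type I gene at the end of the type II cluster. Krt19 (ENSMUSG00000020911) lies apart, on chromosome 11 from 100140810 to 100148665 on the minus strand, beside other type I genes. The promoters of the neighbouring pair are shown because one gene had 2534 UMIs in tumour cells under the wild type label and its neighbour 9. They are the RefSeq windows of 250 bases before and 50 after the annotated start, on GRCm38.p6, chr15:102004293-102004592 (minus strand) for Krt8 and chr15:102027966-102028265 (plus strand) for Krt18, written 5′ to 3′ on the strand of the gene. Both RefSeq starts lie downstream of the GENCODE gene starts given above, and positions in the windows are counted from the RefSeq starts. Capitals mark every match, on either strand, of TATAAA or of the E-box letters CANNTG.
Krt8: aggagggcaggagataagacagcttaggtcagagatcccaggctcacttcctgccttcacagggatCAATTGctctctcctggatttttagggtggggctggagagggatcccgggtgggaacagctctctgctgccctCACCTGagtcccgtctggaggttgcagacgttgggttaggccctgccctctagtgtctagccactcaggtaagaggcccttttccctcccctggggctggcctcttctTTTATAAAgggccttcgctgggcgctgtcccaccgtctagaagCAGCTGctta
Krt18: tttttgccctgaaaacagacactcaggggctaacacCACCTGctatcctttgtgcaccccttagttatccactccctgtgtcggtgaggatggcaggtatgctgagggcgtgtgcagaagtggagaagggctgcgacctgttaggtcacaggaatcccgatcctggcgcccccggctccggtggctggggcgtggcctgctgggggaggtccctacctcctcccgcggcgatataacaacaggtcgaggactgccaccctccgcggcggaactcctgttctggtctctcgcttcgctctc
The Krt8 window held TATAAA in 2 overlapping matches, 1 on each strand, whose first bases are at -3 and -1 from the RefSeq start, and the Krt18 window held none. E-box letters occurred 3 times in the Krt8 window, at -184, -111 and 41, and once in the Krt18 window, at -214. No match of TGANTCA (the AP-1 letters), GGGCGG (a GC box) or CCGGAA (an Ets core) was found in either window. Of the 32851 promoter windows in the table, 13.6% held TATAAA, 72.3% CANNTG, 7.81% TGANTCA, 35.7% GGGCGG and 14.9% CCGGAA. The Krt18 window had 17 CG pairs and the Krt8 window 6, against a median of 7 over all windows. These matches describe the letters of the windows and say nothing of which factor binds there.

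Krt8 was far higher in tumour cells under the wild type label. It was counted at 112 CPM (2534 UMIs, 107 to 116) there and at 2.79 CPM (87 UMIs, 2.23 to 3.44) under the knockout label, 40.1-fold lower (32.3 to 50.2), or -5.32 on the log2 scale (-5.65 to -5.02). Only 2 of the 12924 genes with at least 100 UMIs in tumour cells had a lower log2 ratio. Of these genes 2.51% were lower by 2-fold or more under the knockout label and 4.91% were higher by as much, with a median log2 ratio of 0.03 over all of them. Since Krt8 was chosen for this difference, nothing is read from its place in that order.

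The share of Krt8-positive tumour cells was 13.4% (88 of 659, 10.8 to 16.2) against 3.68% (38 of 1032, 2.62 to 5.02). Positive cells were deeper than the others in both libraries, with medians of 41466 against 30132 UMIs and of 39614.5 against 25853 UMIs. After each cell was thinned to 5000 UMIs, 6.92% of 650 tumour cells (5.09 to 9.15) and 0.789% of 1014 (0.341 to 1.55) had a Krt8 UMI, leaving out 9 and 18 shallower cells. In thinned host cells, which are largely leukocytes and should lack the gene, Krt8 was found in 4 of 1895 cells (0.211%) and in 0 of 4558 (which allows up to 0.0658%). The share in tumour cells thus stood above that in host cells of the same library, at equal depth, under both labels.

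The UMIs of Krt8 were concentrated in few cells. Under the wild type label 571 tumour cells had none, 25 had 1, 24 had 2 to 4, 18 had 5 to 19, and 21 had 20 or more. Those 21 cells held 89.5% of all Krt8 UMIs of tumour cells and stood at 2010 CPM. The richest cell had 315 Krt8 UMIs of its 35028 (8990 CPM), and the 10 richest held 70.9% of the total. Under the knockout label 22 cells had 1 UMI, 11 had 2 to 4, 5 had 5 to 19 and none had 20 or more; the richest cell had 19. Within positive cells the level ran from 8.92 CPM through a median of 100 CPM to 8990 CPM under the wild type label, and from 11.7 through 36 to 532 CPM under the knockout label. Positive cells therefore differed between the labels in number and in level, and the ranges overlapped. Without the 10 richest cells of each library the levels were 33.3 and 1.11 CPM, and the log2 ratio was -4.91.

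**Figure D1:**
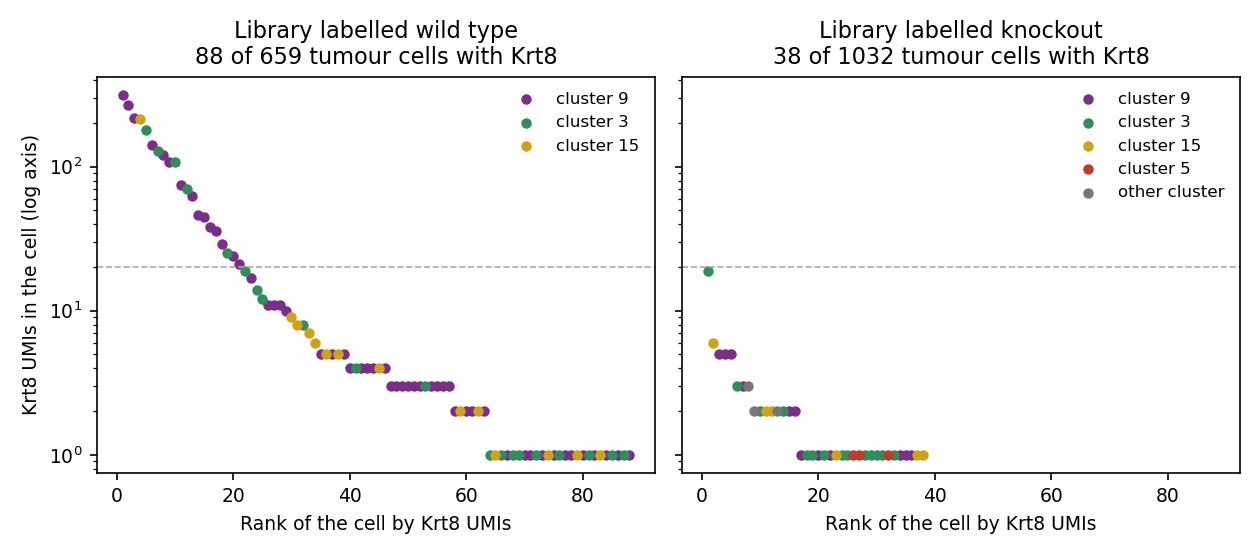
Krt8 UMIs in each Krt8-positive tumour cell (log axis) against the rank of the cell, by library, with points coloured by cluster and a dashed line at 20 UMIs. Under the wild type label 21 cells lie at or above the line, reaching 315 UMIs, and under the knockout label the highest cell has 19.

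Clusters made without any keratin gene divided the tumour cells, and Krt8 differed among them. Cluster 9, led by Cadm2, Mdga2, Cntn1, Sncaip, Nts and Opcml, was the richest in both libraries. There Krt8 stood at 203 CPM (1688 UMIs, 193 to 213; 54 of 236 cells) under the wild type label and at 8.64 CPM (28 UMIs, 5.74 to 12.5; 12 of 97 cells) under the knockout label. Cluster 3, led by Nkain2, Cdh18, Syt4 and Pcdh15, had 82.6 CPM (76.0 to 89.6) against 3.01 CPM (2.11 to 4.16). Cluster 15, whose cells are deep and are led by Cdh18, Brinp3, Bex1 and Uchl1, had 45.6 CPM (40.3 to 51.4) against 2.16 CPM (1.15 to 3.69). In cluster 5, led by Col2a1, Gpnmb and Enpp2 and left unnamed, Krt8 was found in 0 of 45 cells and in 3 of 356 cells (3 UMIs).

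By CPM the order cluster 9, cluster 3, cluster 15, cluster 5 held in both libraries. The intervals of clusters 3 and 15 overlapped under the knockout label. By the share of cells with Krt8, cluster 15 stood above cluster 3, at 12.4% against 8.81% and at 5.31% against 3.75%, with overlapping intervals. Of the 21 cells with 20 or more Krt8 UMIs, 15 lay in cluster 9, 5 in cluster 3 and 1 in cluster 15. Within clusters the log2 ratio of the knockout over the wild type label was -4.55 in cluster 9, -4.78 in cluster 3 and -4.40 in cluster 15. These levels rest on few cells: 15 cells held 1543 of the 1688 UMIs of cluster 9 under the wild type label, 5 held 511 of 580 in cluster 3, and 1 held 214 of 266 in cluster 15. Without the richest cell of each cluster in each library the ratios were -4.52, -5.33 and -2.91, and cluster 15 stood at 8.98 against 1.20 CPM (-4.29 to -1.77). The make-up of the tumour cells differed as well: cluster 9 held 236 of 659 tumour cells against 97 of 1032, and cluster 5 held 45 against 356. With every cluster given the same weight under both labels, the Krt8 log2 ratio was -4.55.

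**Figure D2:**
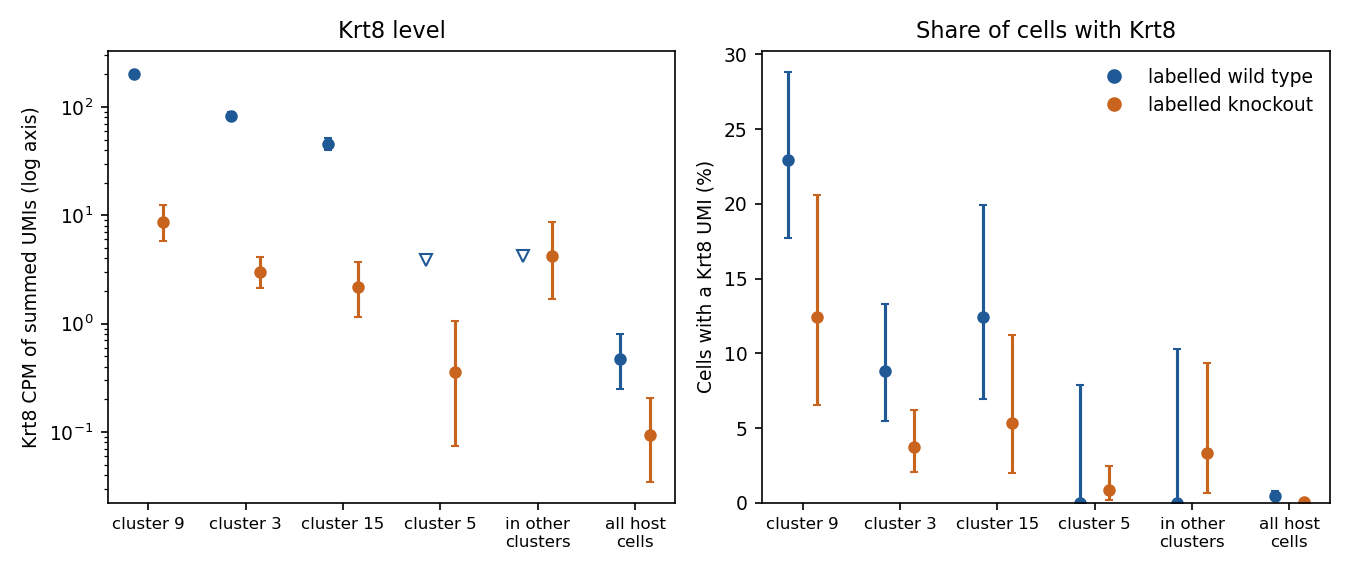
Krt8 level in CPM (left, log axis, exact Poisson 95% intervals) and share of cells with a Krt8 UMI (right, exact binomial 95% intervals) for tumour cells by cluster and for all host cells, in each library; open triangles mark the level that a count of 0 allows (3 UMIs). Clusters 9, 3 and 15 lie at 203, 82.6 and 45.6 CPM under the wild type label and at 8.64, 3.01 and 2.16 CPM under the knockout label, above host cells at 0.468 and 0.0936 CPM.

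Krt8 was found both in dividing and in other tumour cells. Of cells with UMIs of 2 or more of 6 division genes (Cdc20, Ube2c, Cenpf, Top2a, Mki67, Ccnb1), Krt8 was found in 61 of 395 in the library labelled wild type and in 27 of 443 in that labelled knockout. Of the other cells, 27 of 264 and 11 of 589 had it, a lower share under both labels. The dividing cells held 1822 and 70 Krt8 UMIs and the other cells 712 and 17. The part of depth in this split was not tested. At the edge of the tumour gate, cells with a marker sum of exactly 4, just inside it, held 2 Krt8 UMIs in 29 cells and 7 in 51, and cells with a sum of 3, just outside, held 1 in 31 and 0 in 45. On the Ptprc side, cells with 1 UMI held 142 Krt8 UMIs in 57 cells and 19 in 128, and those with 2, outside the gate, 75 in 4 cells and 2 in 25.

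Krt18, the usual partner of Krt8, was barely counted in tumour cells. It had 9 UMIs in 5 of 659 cells (0.396 CPM, 0.181 to 0.752) with the wild type label and 5 UMIs in 3 of 1032 cells (0.160 CPM, 0.0520 to 0.374) under the knockout label. The log2 ratio was -1.31 with an interval from -3.23 to 0.42, which includes no difference, and it was -3.38 in cells with no Ptprc UMI (8 and 1 UMIs). In thinned cells Krt18 was found in 0 of 650 and 2 of 1014 tumour cells, against 12 of 1895 (0.633%) and 20 of 4558 (0.439%) host cells, so its share in tumour cells did not exceed that in host cells. Krt19, another type I partner, had no UMI in tumour cells of either library, which allows a share of up to 0.455% and 0.291% of cells with a UMI and a level of up to 0.132 and 0.0961 CPM.

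What Krt18 there was lay largely in Krt8-positive cells. Under the wild type label 4 of 88 Krt8-positive tumour cells had Krt18 (4.55%, 1.25 to 11.2) and 1 of 571 Krt8-negative cells (0.175%, 0.00443 to 0.972). Under the knockout label these were 2 of 38 (5.26%, 0.644 to 17.7) and 1 of 994 (0.101%, 0.00255 to 0.559), and 1 of the 2, with 2 of the 4 Krt18 UMIs, lay in the neuroblast-like cluster 21 and carried ependymal markers. Beside the 2534 Krt8 UMIs of the positive cells stood 8 Krt18 UMIs, and of the 21 richest cells 3 had any: 5 Krt18 UMIs beside 181 of Krt8, 1 beside 268 and 1 beside 141. The cells with both genes were deep, at 42953 to 75532 UMIs under the wild type label, and thinned to 5000 UMIs none of 45 Krt8-positive cells there had Krt18. Under the knockout label the cells had 172290 and 9686 UMIs, and 1 of 8 thinned Krt8-positive cells had Krt18. These libraries count tags near 3′ ends, and UMIs of different genes were not put on a scale per length.

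Outside the tumour gate, 1 cell of cluster 9 under the wild type label carried both keratins, with more Krt18 than any cell inside the gate: 75 Krt8 UMIs (1270 CPM) and 18 Krt18 UMIs (306 CPM) among 58915. It had a marker sum of 39 and 2 Ptprc UMIs, 1 above the limit, and was not called a doublet. With no Ptprc limit the Krt18 counts become 27 and 5 UMIs, the 18 of this cell included, and the Krt8 log2 ratio is -5.37. The only Krt19 UMIs of the kept cells, 3 of them, were also in 1 cell of cluster 9 under the wild type label, with a marker sum of 6, 10 Ptprc UMIs and no Krt8 or Krt18.

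Copies of the genes elsewhere in the genome could share reads. Aligned against all GENCODE M21 transcripts, the last 500 bases of the longest Krt8 transcript matched no other gene at 95% identity or more over at least 90 bases, the highest being 80.4%. For Krt18 the highest was 91.9%, with the pseudogene Gm5200, and for Krt19 86.7%, with Krt13. The human rows KRT8, KRT18 and KRT19 of the combined reference had 0 UMIs in both libraries. Gm36026, a noncoding gene on the opposite strand that overlaps the Krt8 start, had 3 and 0 UMIs in tumour cells, and the sources used here do not say whether strand was used in counting.

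No other keratin was counted in tumour cells at anything like this number. Of all 53 keratin genes, 40 had no UMI in the tumour cells of either library, 12 had from 1 to 99 in both together, and Krt8 alone passed 100. Krt8 made up 98.9% of 2562 keratin UMIs in the library labelled wild type and 64.4% of 135 in the other. Krt10, singled out after its values were seen, had the next most, 10 and 24 UMIs, of which 10 and 23 were in the 34 and 91 gated cells outside the tumour clusters. Krt8 in those cells had 0 and 7 UMIs. Within 200 kb of Krt8 the annotation places 17 other genes of the table, 9 of them keratins, of which 6 had no UMI in tumour cells. Among the 6 neighbours with at least 100 UMIs the log2 ratio ran from -1.64 to 0.97 with a median of -0.03. The lowest was Igfbp6, an IGF-binding protein 140 kb away, at 3.79 against 1.22 CPM, and the highest was Tns2, a focal adhesion protein 95.9 kb away, at 7.27 against 14.3 CPM. Eif4b, a translation factor gene that lies next beyond Krt18, stood at 219 and 177 CPM. These neighbours were taken by position.

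The genes that went most closely with Krt8 from cell to cell under the wild type label were Cst6, Glod5 and Mctp2. Pearson r was taken over the 659 tumour cells of 1 library, between log2(1 + counts per 10000) of each gene and of Krt8, for 11241 genes found in at least 5% of cells. These r share library, depth and the few Krt8-rich cells, and are given without a test. The highest was that of Cst6, a cysteine protease inhibitor of epithelia, at 0.48. It stood at 233 CPM in Krt8-positive and 50.2 CPM in Krt8-negative tumour cells, 4.64-fold higher (4.24 to 5.08). Cstb, the inhibitor cystatin B, had an r of 0.37 and stood at 1270 against 464 CPM. Of the galectins, which bind beta-galactosides, Lgals7 of stratified epithelia had an r of 0.37 (14.6 against 3.37 CPM) and Lgals3 of 0.34 (329 against 154 CPM). S100a10 and S100a6, genes of the S100 family of small proteins, had 0.30 and 0.29, and S100a6 stood at 505 against 240 CPM.

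Glod5, a glyoxalase domain gene, had an r of 0.44 and the largest contrast of the 15 genes, 42.3 against 1.58 CPM (26.8-fold, 18 to 41.2), on 211 UMIs in all. Mctp2, whose protein has C2 domains in the endoplasmic reticulum, followed at 0.43, with 57.1 against 12 CPM. The gap junction gene Gjb1 (connexin 32), the ligand gene Wnt7b and the mitochondrial malic enzyme gene Me2 had r of 0.28, 0.29 and 0.28. Syt4, a synaptotagmin, Btbd16, Pcolce2, an enhancer of procollagen processing, and Ppfia2, a liprin of synapses, completed the 15 at 0.27 to 0.29. The median r over all ranked genes was -0.01. Without the 10 Krt8-richest cells the r of the 15 genes ran from 0.03 (Gjb1) to 0.39, with a median of 0.22.

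The lowest r were those of Auts2 (-0.27), the myelin proteolipid relative Gpm6b (-0.26), the growth cone gene Basp1 (-0.26), Itm2b (-0.23) and the LIM-only gene Lmo4 (-0.22). Auts2 stood at 249 CPM in Krt8-positive and 727 CPM in Krt8-negative cells, and Basp1 at 121 against 309 CPM. Of 10977 genes with at least 100 UMIs between the positive and negative cells, Krt8 left out, 0.793% were higher in positive cells by 2-fold or more and 4.84% were lower by as much. The 15 genes were ranked from these same cells, so nothing further is read from their contrasts here.

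In tumour cells under the knockout label, which did not choose these genes, the r were close to 0. Of the 15 genes, 12 were found in at least 5% of the 1032 cells, and their r ran from -0.02 to 0.12 with a median of 0.04. Within cluster 9 alone, 97 cells, the 12 ran from 0.04 to 0.39 with a median of 0.24, against a median of -0.01 over all 11211 genes ranked there. These r rest on 12 Krt8-positive cells with 28 Krt8 UMIs, and the restriction was chosen after seeing the data. Wnt7b, Pcolce2, Cst6, S100a10 and S100a6 had 0.39, 0.34, 0.33, 0.32 and 0.31 there. In cluster 9 under the wild type label, 236 cells, all 15 lay between 0.23 and 0.53.

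Comparing Krt8-positive with Krt8-negative tumour cells of the library labelled knockout, 12 of the 15 genes had at least 100 UMIs. Their folds ran from 1.04 (Gjb1) to 3.73 (Cst6), and 4 genes reached 2-fold, namely Cst6, Mctp2, Lgals3 and Wnt7b. Over all 11896 genes measured in this contrast 1.0% were higher by 2-fold or more and 7.4% were lower by as much. Cst6 stood at 322 against 86.3 CPM and Lgals3 at 344 against 161 CPM. Glod5 and Lgals7 had no UMI in the 38 Krt8-positive cells and 20 and 18 in the others. The intervals of their folds ran from 0 to 3.39 and from 0 to 3.81, which includes no difference. Krt8-positive and Krt8-negative cells differed in their clusters: Krt8 was found in 12 of 97 cells of cluster 9 and 3 of 356 of cluster 5. The part of the clusters in the folds between positive and negative cells, under either label, was not tested.

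**Figure D3:**
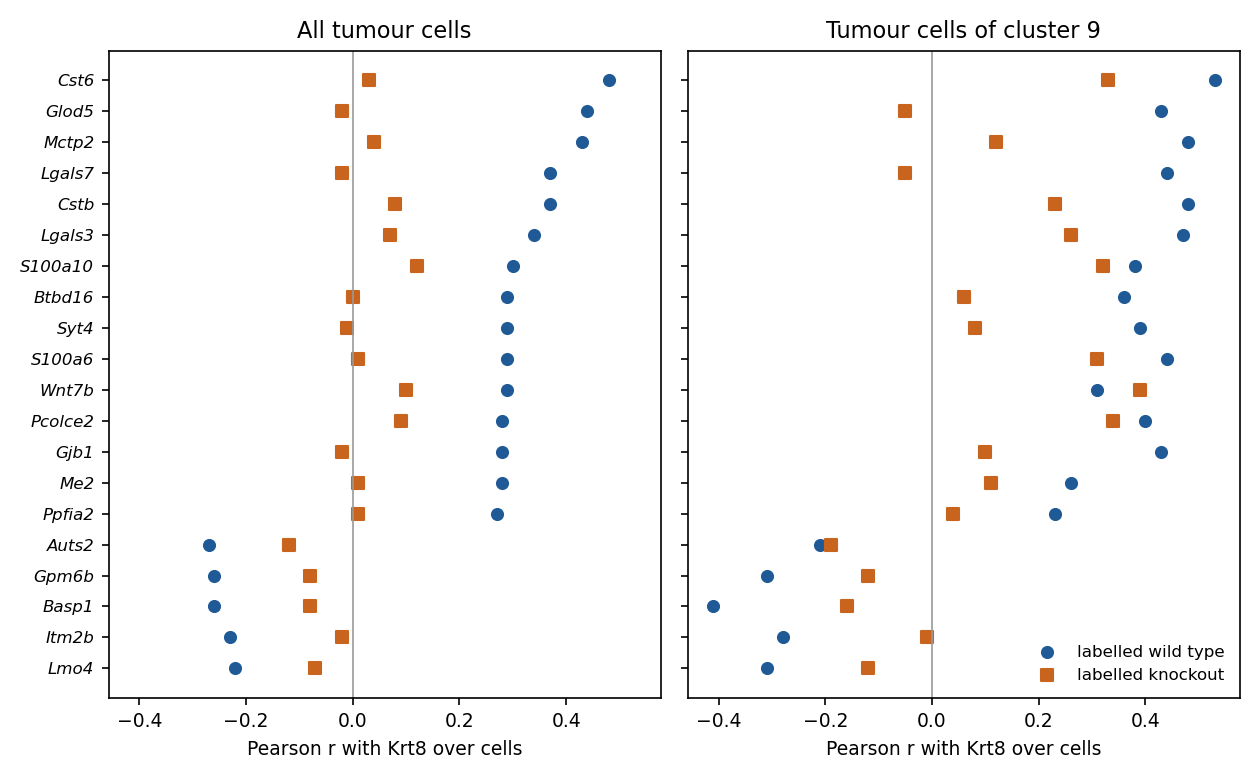
Pearson r with Krt8 over tumour cells for the 15 genes with the highest and the 5 with the lowest r under the wild type label, in all tumour cells (left) and in those of cluster 9 (right), by library. Over all tumour cells the 15 genes lie at 0.27 to 0.48 under the wild type label, and those found in at least 5% of the cells at -0.02 to 0.12 under the knockout label; in cluster 9 the latter lie at 0.04 to 0.39.

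Between the libraries the levels of these genes are given as values only, since the genes were ranked and filtered under the wild type label alone and nothing is read from them. Glod5 stood at 9.29 and 0.641 CPM and Lgals7 at 5.51 and 0.576 CPM, while Cst6 stood at 84.8 and 99.6 CPM and Cstb at 617 and 587 CPM.

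Under the knockout label itself the 5 highest r, 0.35 to 0.38, belonged to Hdc, the histidine decarboxylase gene, and to Rarres2, Cdhr4, Ccdc146 and Wdr66. They rested on 2 cells. Both carried all 6 ependymal markers (Foxj1, Tmem212, Ccdc153, Dynlrb2, Rarres2, Pifo), lay in the neuroblast-like cluster 21, and had 2 and 3 Krt8 UMIs among 12120 and 9686 UMIs. Without these 2 cells the r of the 5 genes ran from -0.03 to 0.01. Under the wild type label no tumour cell had 3 or more ependymal markers, and these 5 genes had r of -0.04 to 0.04. With the 2 cells left out, Krt8 in tumour cells under the knockout label had 82 UMIs in place of 87 and the log2 ratio was -5.41.

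Without those cells the highest r under the knockout label was that of Epcam, an adhesion molecule of epithelia, at 0.24. Epcam stood at 100 CPM in Krt8-positive and 23.2 CPM in Krt8-negative cells of that library (4.32-fold, 3.64 to 5.10), and at 76.1 against 49.9 CPM (1.52-fold, 1.34 to 1.73; r 0.17) under the wild type label. After Epcam came Grasp at 0.18 and Tinagl1 and Txn1 at 0.17, with r under the wild type label of 0.24, 0.15 and 0.12. The 9 markers of other epithelium summed to 77.1 against 51.1 CPM and to 102 against 24.8 CPM. Of these 9, 7 had no UMI in Krt8-positive cells under each label (Cldn3, Cldn4, Cldn7, Krt5, Krt14, Krt7 and Dsp). Cdh1 had 4 and 3 UMIs there, and Epcam 328 and 176. In Krt8-negative cells 5 of the 9 had no UMI under each label. Dsp had 6 and 7 UMIs in those cells, Krt7 1 and 0, Cldn7 0 and 2, Cdh1 15 and 40 and Epcam 919 and 683. Markers of choroid plexus epithelium summed to 2.09 and 1.71 CPM in Krt8-positive cells and to 3.97 and 2.92 CPM in the others. The 12 monocyte and macrophage markers summed to 11.8 CPM in Krt8-positive and 59.3 CPM in Krt8-negative cells under the wild type label, with 3 at 0 in the former, and to 78.5 and 73.8 CPM under the knockout label. The 6 ependymal markers summed to 3.48 and 6.03 CPM and, with the 2 cells above included, to 121 and 4.58 CPM. The 10 tumour markers summed to 1890 against 2330 CPM and to 2250 against 2570 CPM. The 10 T cell markers summed to 10.2 against 6.69 CPM and to 7.96 against 14.3 CPM. The part of these other cell types in the values of Krt8 was not tested.

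Genes related to keratins were compared between the labels in tumour cells, with higher and lower meaning 1.5-fold or more in the library labelled knockout. Of all 12924 genes measured 12.2% were higher and 6.64% lower by that measure, and the median log2 ratio was 0.03. Of 13 other intermediate filament genes, 8 were measured, 1 was higher and 2 were lower, with a median of -0.25. Vim, the filament of mesenchymal and glial cells, stood at 1280 and 1080 CPM, and in Krt8-positive cells under the wild type label at 1790 CPM against 1150 CPM in Krt8-negative cells. Nes, which belongs to the tumour gate, stood at 144 and 137 CPM. Prph (peripherin) stood at 256 and 363 CPM, and the astrocyte filament Gfap was higher under the knockout label at 2.86 against 4.93 CPM. Des (desmin) was lower, at 3.74 against 1.54 CPM, and so was the lamin gene Lmnb1, at 174 against 101 CPM.

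Of 33 epithelial and junction genes 10 were measured, of which 1 was higher and 3 were lower, with a median of -0.13. Epcam was lower, at 54.9 against 27.5 CPM, and Klf5, an epithelial transcription factor, stood at 29 against 18 CPM. The tight junction gene Tjp3 was lower at 3.57 against 2.31 CPM. Pkp4, Tjp1 and Klf4, those with the most UMIs beside Epcam, stood at 106 and 94.3, 80.6 and 101, and 47.1 and 51.9 CPM. Of the 14 keratin linkers and binding proteins 9 were measured and none was 1.5-fold higher or lower, with a median of 0.05. The plakin Dst stood at 615 and 637 CPM and Macf1, a linker of microtubules and actin, at 191 and 239 CPM. The 14-3-3 genes Ywhae and Ywhaz, whose proteins bind keratin 18, stood at 606 and 524 CPM and at 363 and 302 CPM. Ppl (periplakin) and Fbf1, the other members with larger ratios, stood at 2.99 against 2.24 CPM and 16.3 against 19 CPM.

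Of 16 factors tied to simple keratin genes, 14 were measured in tumour cells, 1 was higher and none was lower, with a median of 0.07. The AP-1 genes Jun, Fos, Jund and Junb stood at 804, 945, 616 and 336 CPM under the wild type label and at 1110, 872, 616 and 376 CPM under the knockout label. Gata3 was higher, at 5.55 against 8.94 CPM, and Ets1 and Ets2 stood at 53.1 against 68.7 CPM and at 7.71 against 9.93 CPM. Of 9 mesenchymal genes 6 were measured and 1 was higher, Fn1 (fibronectin), at 31.4 against 56.2 CPM, which stood at 3.25 CPM in Krt8-positive and 38.0 CPM in Krt8-negative cells under the wild type label. Fn1 is also 1 of the 12 monocyte and macrophage markers, of which the other 11 summed to 18.8 and 17.9 CPM in tumour cells and to 8.59 CPM in Krt8-positive against 21.3 CPM in Krt8-negative cells under the wild type label. The part of such cells in the Fn1 values was not tested. Cdh2, Twist1, Zeb1 and Zeb2 stood at 100 and 118, 29.9 and 25.5, 220 and 244, and 294 and 281 CPM.

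Of 14 genes of the injury state known from lung, 13 were in the gene table and 7 were measured, Krt8 among them. Clu, Ccn1 and Ccn2 were higher under the knockout label, at 68.9 against 134, 91.7 against 147 and 3.26 against 6.31 CPM, and Krt8 was the only one lower. The median without Krt8 was 0.35. Within the wild type label Lgals3 and Cdkn1a, a cell cycle inhibitor, were higher in Krt8-positive than in Krt8-negative cells, at 329 against 154 CPM and 191 against 106 CPM. Clu and Ccn1 were lower there, at 34.8 against 76.9 CPM and 32.5 against 106 CPM.

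In host cells Krt8 was near absent and Krt18 was counted in more cells. All host cells together had 13 Krt8 UMIs in 10 of 2355 cells (0.468 CPM, 0.249 to 0.8) and 6 in 2 of 5292 cells (0.0936 CPM, 0.0344 to 0.204). Of the 13, 4 were in 1 plasmacytoid dendritic-like cell, and of the 6, 5 were in 1 dendritic-like cell. Microglia-like, neuroblast-like and oligodendrocyte-like host cells had no Krt8 UMI under either label, which allows up to 3.62 and 0.458 CPM in the microglia-like cells. In the neuroblast-like cells it allows up to 10.3 and 2.96 CPM, and in the oligodendrocyte-like cells up to 8.38 and 2.42 CPM. The neuroblast-like cluster 21 also held gated cells, which are not host cells here. Under the knockout label 2 of these, those with ependymal markers, had Krt8.

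Krt18 had 41 UMIs in host cells under the wild type label (1.48 CPM, 1.06 to 2) and 52 under the knockout label (0.812 CPM, 0.606 to 1.06). Its UMIs in macrophages were all in cluster 2. Cluster 2, monocyte/macrophage-like cells led by H2-M2, Ccl24, Adamdec1 and Mmp12, held 31 UMIs in 18 of 464 cells (3.56 CPM, 2.42 to 5.05) and 16 UMIs in 11 of 287 cells (2.22 CPM, 1.27 to 3.61). Cluster 1, macrophage-like cells led by Arg1 and Ms4a7, had none in 226 and 668 cells, which allows up to 1.31 and 0.334 CPM. Cluster 20, led by Chil3 and Adgre4, had none in 47 and 155 cells, which allows up to 9.24 and 2.47 CPM and does not set it apart from cluster 2. Cells of cluster 2 were deeper than those of cluster 1, at medians of 18999 against 9602.5 UMIs and of 25636 against 12284.5 UMIs, while the intervals of CPM of clusters 1 and 2 did not overlap in either library. Over the whole monocyte/macrophage-like class the levels were 2.74 CPM (1.86 to 3.88) and 0.919 CPM (0.525 to 1.49), with cluster 2 making up 464 of 737 and 287 of 1110 of its cells.

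Elsewhere Krt18 was sparse, and most neighbours in the order did not differ beyond their intervals. Dendritic-like cells had 1.13 and 0.578 CPM, T cell-like cells 0.918 and 0.805 CPM, and NK cell-like cells 0 UMIs in 257 cells and 1.38 CPM. Microglia-like cells had 0 UMIs in 85 cells and 0.458 CPM. Within these classes, the T cell-like cluster 6, led by Areg and with Foxp3, stood at 4.11 CPM (4 UMIs in 2 cells, 1.12 to 10.5) and 1.54 CPM (0.565 to 3.35), and the dendritic-like cluster 17 at 1.06 and 1.94 CPM. Their intervals overlapped that of macrophage cluster 2. The unnamed cluster 8, which carries B cell and plasma cell genes, had 0 UMIs in 66 cells and 8 UMIs in 6 of 338 cells (2.22 CPM, 0.960 to 4.38). Neuroblast-like and oligodendrocyte-like host cells had no Krt18 UMI under either label, while a gated cell of cluster 21 under the knockout label had 2.

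**Figure D4:**
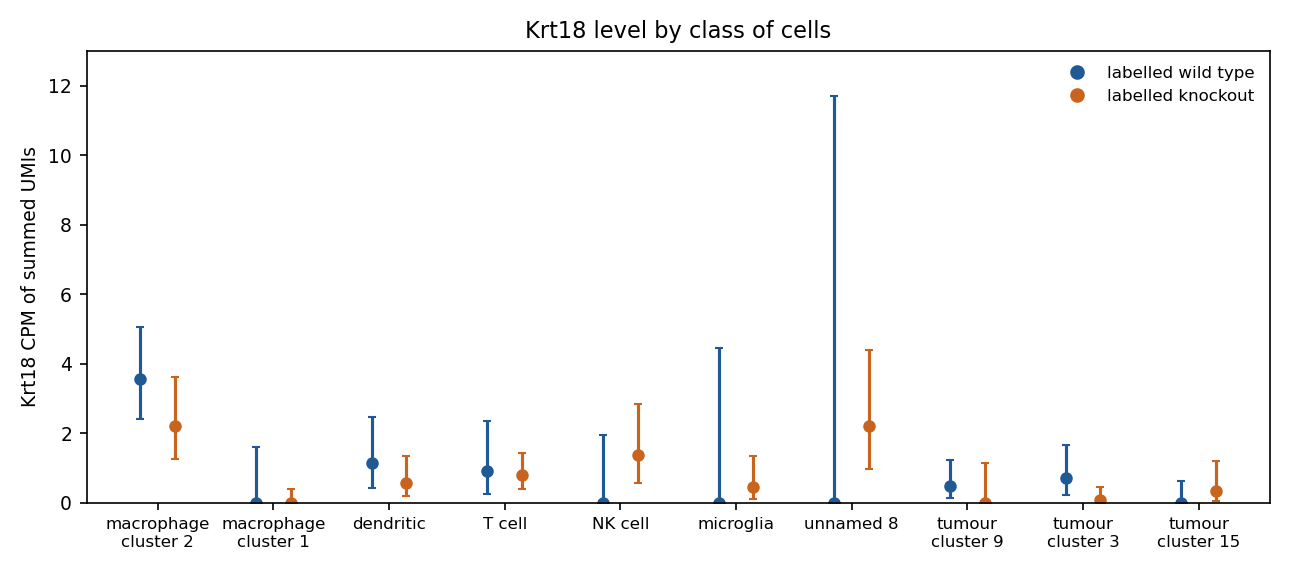
Krt18 level in CPM of summed UMIs by class or cluster of cells, in each library, with exact Poisson 95% intervals. Macrophage cluster 2 lies at 3.56 and 2.22 CPM in the libraries labelled wild type and knockout, macrophage cluster 1 at 0 in both, and tumour clusters 9, 3 and 15 at 0 to 0.712 CPM.

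Other keratins, singled out after their values were seen, were counted in host cells with no Krt8 UMI. Krt83, a hair keratin, stood at 270 CPM (12 of 26 cells) and 252 CPM (65 of 109 cells) in the unnamed cluster 23, led by Mcpt1, Mcpt2, Il17a and Trdc. Krt80 stood at 58.5 and 69.9 CPM in the monocyte-like cluster 20. Krt10, with the wild type value first and the knockout value second, was found in 6 of 29 and 14 of 77 neuroblast-like cells (24.1 and 16.8 CPM). For oligodendrocyte-like cells the counts were 3 of 31 and 14 of 98 (8.38 and 12.1 CPM). Krt8 had 0 UMIs in these 4 groups of cells under both labels. Under the wild type label this allows up to 21.3 CPM in cluster 23 and 9.24 CPM in cluster 20. It allows up to 10.3 CPM in the neuroblast-like and 8.38 CPM in the oligodendrocyte-like cells there. Under the knockout label the same bounds are 3.22, 2.47, 2.96 and 2.42 CPM. Those of cluster 23 and of the neuroblast-like cells, 3.22 and 2.96 CPM, lie above the 2.79 CPM of Krt8 in tumour cells of that library. The bounds under the wild type label lie above 2.79 CPM too, but below the 112 CPM of Krt8 in tumour cells of their own library.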

How the data were processed

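Each library was made from dissociated brain tissue with a Chromium 3′ single-cell kit, per the labels' protocols. The deposited matrices hold UMI counts of each gene in each barcode, which the authors made with Cell Ranger 7.1.0, a version named in the submitters' processing notes and, per the file headers, in the matrices, on a combined human and mouse reference; the notes also name Seurat 5.0.2 and mm10 without a role. Only mouse genes were used. The sources used here do not say how introns, strand and background were treated in counting, and free RNA was not subtracted.

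The rest was computed with scanpy 1.11.5, leidenalg 0.10.2, scipy 1.17.1, numpy 2.4.6, pandas 2.3.3 and scikit-learn 1.9.0 under Python 3.11.15, and figures were drawn with matplotlib 3.10.9. The members, gene lists and markers were chosen with earlier results of these data known. Counts were summed per library and class and scaled to CPM; log2 ratios have exact intervals conditional on the summed counts, shares exact Clopper-Pearson intervals, and what a count of 0 allows was taken as 3 counts of the total. No p-values were computed. Cells were clustered over both libraries on 1998 variable genes (2 keratin genes taken out), 30 components and 15 neighbours by Leiden at resolution 1, and a cluster was named from 3 or more fixed markers, unless its 10 leading genes went against them; names mean "-like". Host cells are kept cells outside both the gate and the tumour clusters, and classes of at least 20 cells are given. Scrublet marked 77 and 165 doublets, with the expected number of top scores taken under the wild type label because the automatic threshold marked only 0.257%; they were kept and left out as an alternative. Of the tumour cells 7 and 5 were so marked, 34 and 91 lay outside the tumour clusters, and 51 and 90 had a marker sum of 4 or 5. Named genes are the members, the 15 highest and 5 lowest by r under the wild type label and the 5 highest under the knockout label (mitochondrial, ribosomal, Gm-numbered and Rik genes left out), and from each list up to 4 members with the most UMIs and up to 4 with the largest log2 ratios. One gene that this rule names is not reported here. The scripts were tested on simulated data.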

Additional observations from a re-analysis of the deposited data

Results flagged for a closer look

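Barcodes that the cell filter left out also held Krt8, which lies outside the main measurement. Under the wild type label 15 Krt8 UMIs were spread over 14 of 4272 left-out barcodes, at most 2 in any of them (5.94 CPM, 3.33 to 9.80). Under the knockout label 1 UMI was found in 1794 such barcodes (0.401 CPM, 0.0101 to 2.23). The level in left-out barcodes under the wild type label was above that in the host cells of the same library, 0.468 CPM, and below that in its tumour cells, 112 CPM. No Krt18 or Krt19 UMI was found in left-out barcodes of either library.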

How the results depend on the processing

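The Krt8 log2 ratio kept its direction under every alternative run, from -5.53 (thinned) to -4.55. It left its counting interval without the 10 Krt8-richest cells of each library (-4.91) and with the clusters weighted alike (-4.55). Without the richest cell of each cluster it moved to -5.33 in cluster 3 and -2.91 in cluster 15. The Krt18 ratio rests on 14 UMIs: it was -0.19 as the mean of per-cell CPM, -3.38 with Ptprc at 0 and -3.74 over all cells of the tumour clusters without a gate. Thinned, the shares were 6.92% and 0.789% for Krt8, and 0% for Krt18 and for Krt18 among Krt8-positive cells under the wild type label; counting only cells with 2 or more UMIs they were 9.56% and 1.55% for Krt8 and 0.152% for Krt18 under the wild type label. Genes at least 2-fold higher numbered 1390 and lower 637 with a minimum of 20 UMIs, and 367 were higher with clusters weighted alike. Of the 15 genes with the highest r, 5 remained by Spearman's rho, 7 when thinned, 9 without dividing cells, 8 without the 10 richest cells and 7 in cluster 9 alone. Under the knockout label the r of Rarres2 became -0.02 and that of Cdhr4 -0.03 without the 2 cells with ependymal markers, without the 10 richest cells and in tumour clusters only. The cause of these shifts was not tested beyond what each setting leaves out. The settings that leave out the richest cells, overall or by cluster, or those with ependymal markers, the restriction of r to tumour clusters or to cluster 9, and those without a gate or a Ptprc limit were chosen after seeing the data. The thinned Krt18 ratio and all Krt19 ratios had no value because of counts of 0. No paired analysis was possible because each group is 1 library and no test was run. Depth limits Krt18 and Krt19: a count of 0 in tumour cells allows up to 0.132 and 0.0961 CPM.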
